A study of Mus musculus with 15 samples.

Results

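The genes described here are 6 of the 32657 features counted in each library: *Scn1a*, *Scn2a1* (named *Scn2a* in current annotation), *Scn3a* and *Scn8a*, which encode the pore-forming alpha subunits of brain voltage-gated sodium channels, *Scn2b*, which encodes a beta subunit of these channels, and *Atp1b1*, which encodes a beta subunit of the Na+/K+ pump. They were taken from the raw counts by symbol, with no threshold on their values, but the choice was made with earlier results of these data known. RNA-seq was made from the ventral and dorsal dentate gyrus (vDG and dDG) of adult mice aged 8 to 12 weeks, in 15 libraries and 6 groups. WT mice were Drd3-Cre KI198::Rosa26-fsTRAP and cKO mice were Drd3-Cre KI198::Rosa26-fsTRAP::Htr4-Floxed, so all groups carried the Cre transgene and the Cre-dependent EGFP-L10a ribosome tag, and the cKO alone carried the floxed allele of *Htr4*, the serotonin receptor 4 gene. An effect of the floxed allele itself therefore cannot be told apart from that of its excision. For each genotype there were libraries of vDG IP, vDG input and dDG input, from 3 WT and 2 cKO pools. IP is mRNA from tagged ribosomes of KI198Cre cells (translating ribosome affinity purification, TRAP), and input is RNA of the whole tissue before the purification. KI198Cre cells comprise mature granule cells and hilar mossy cells, with some pyramidal cells of the CA fields. Mice were pooled, 3 for an IP and 2 for an input by the sample labels, or 1 male and 1 female for each replicate by the methods. One label field calls the inputs cortex, but their titles and region labels give dentate gyrus.

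A neuronal sodium channel opens on depolarization, carries the rising phase of the action potential and closes within milliseconds as an inactivation gate folds into its pore. Nav1.1 (*Scn1a*) is best known from fast-spiking inhibitory interneurons, Nav1.2 (*Scn2a1*) and Nav1.6 (*Scn8a*) from the axons of excitatory neurons, and Nav1.3 (*Scn3a*) from the developing brain. Beta-2 (*Scn2b*) is bound to the alpha subunit by a disulfide bond and aids its delivery to the membrane. The Na+/K+ pump restores the gradients that the channels spend. It pairs a catalytic alpha subunit with a beta subunit that brings it to the membrane, with beta-1 (*Atp1b1*) abundant in neurons and beta-2 (*Atp1b2*) typical of astrocytes.

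On GRCm38 (mm10), *Scn1a* (ENSMUSG00000064329) lies at chr2:66270778-66440840 on the minus strand, *Scn2a1* (ENSMUSG00000075318) at chr2:65620771-65767447 on the plus strand and *Scn3a* (ENSMUSG00000057182) at chr2:65457118-65567627 on the minus strand, all within one cluster of channel genes. *Scn8a* (ENSMUSG00000023033) lies at chr15:100869858-101045938 on the plus strand, *Scn2b* (ENSMUSG00000070304) at chr9:45117782-45130070 on the plus strand and *Atp1b1* (ENSMUSG00000026576) at chr1:164437109-164458355 on the minus strand. The exons cover 11146 to 15766 bp in the alpha subunit genes, 4656 bp in *Scn2b* and 3081 bp in *Atp1b1*.

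The 4 alpha subunit genes are close paralogs, which bears on whether their reads can be told apart. Over the whole coding sequence of GENCODE M21 on GRCm38, identity was 81.6 to 83.6% among *Scn1a*, *Scn2a1* and *Scn3a* and 73.8 to 74.2% between each of them and *Scn8a*. A read of 75 bases seldom fell within an identical run. Of all 75-base windows of the transcript used, 2.24% in *Scn1a*, 3.35% in *Scn2a1*, 3.04% in *Scn3a* and 0.00% in *Scn8a* occurred in another of the 4 genes, and reads with more than one place in the genome were not counted. The beta subunits of the pump are farther apart, with 59.0% of coding bases identical between *Atp1b1* and *Atp1b2*. A stretch of each, read 5′ to 3′ on the strand of the gene, is given because the pair moved apart in the IP, and its capitals mark the 5 codons of a proline, tyrosine, tyrosine, glycine and lysine motif that both share.
Atp1b1: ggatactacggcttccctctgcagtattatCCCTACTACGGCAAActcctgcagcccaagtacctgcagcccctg
Atp1b2: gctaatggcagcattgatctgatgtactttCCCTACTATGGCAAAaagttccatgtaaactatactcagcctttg

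Total counts on genes ranged from 19039295 to 30451430 per library, and no pair of replicates agreed within sampling noise. A principal component with 59.2% of the variance separated IPs from inputs, and the next, with 15.5%, separated vDG inputs from dDG inputs. *Htr4* summed over all its exons was higher in every cKO group (26.9 to 30.2 CPM in cKO IPs against 13.6 to 15.9 in WT IPs), and its floxed exon was not analysed here. CPM are counts scaled to a common library size by the TMM method over all 15 libraries. WT dDG input replicates 2 and 3 stood apart in the choroid plexus marker *Ttr*, at 72.8 and 121 CPM beside 0.12 to 11.4 CPM in the other 13 libraries. The other choroid plexus markers did not stand apart in this way. *Kl* was at 22.25 to 27.3 CPM in the WT dDG inputs and at 17.7 to 24.1 CPM in the WT vDG inputs. *Folr1* and *Aqp1* were at 0.689 CPM or less in every library. The granule cell markers *Prox1*, *Calb1*, *Dsp*, *C1ql2* and *Tdo2* were detected in every group, at a summed 958 to 1526 CPM. The vDG marker *Trhr* was at 14.5 to 31.3 CPM in vDG and at 0.119 to 0.719 CPM in dDG libraries. The dDG marker *Lct* was at 128 to 182 CPM in dDG inputs. It was also present in vDG, at 29.9 to 47.9 CPM in the inputs and 58.35 to 87.8 CPM in the IPs. The labels do not say whether replicates came from separate litters or dissection days, so the tests measure the spread between these pools.

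Per kilobase of exon, *Atp1b1* was the most abundant of the 6 genes and *Scn1a* or *Scn3a* the least, in every group. In the WT vDG IP the mean levels were 504.6 CPM per kb for *Atp1b1*, 56.2 for *Scn2b*, 32.7 for *Scn2a1*, 27.3 for *Scn8a*, 7.35 for *Scn3a* and 6.12 for *Scn1a* (n = 3). In the WT vDG input they were 433 for *Atp1b1*, 47.8 for *Scn2b*, 23.7 for *Scn2a1*, 18.95 for *Scn8a*, 6.70 for *Scn1a* and 6.12 for *Scn3a* (n = 3). The first 4 places were the same in all 6 groups. *Scn2a1* was above *Scn8a* in every library, although the ranges of the pair overlapped within each WT group. *Scn1a* took the fifth place only in the WT vDG input, where its range overlapped that of *Scn3a*, and the last place elsewhere. Their ranges overlapped also in the WT IP and were separate in the other 4 groups. *Scn2a1* and *Scn8a* were thus the most abundant of the 4 alpha subunit transcripts in whole tissue and IP alike.

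**Figure D1:**
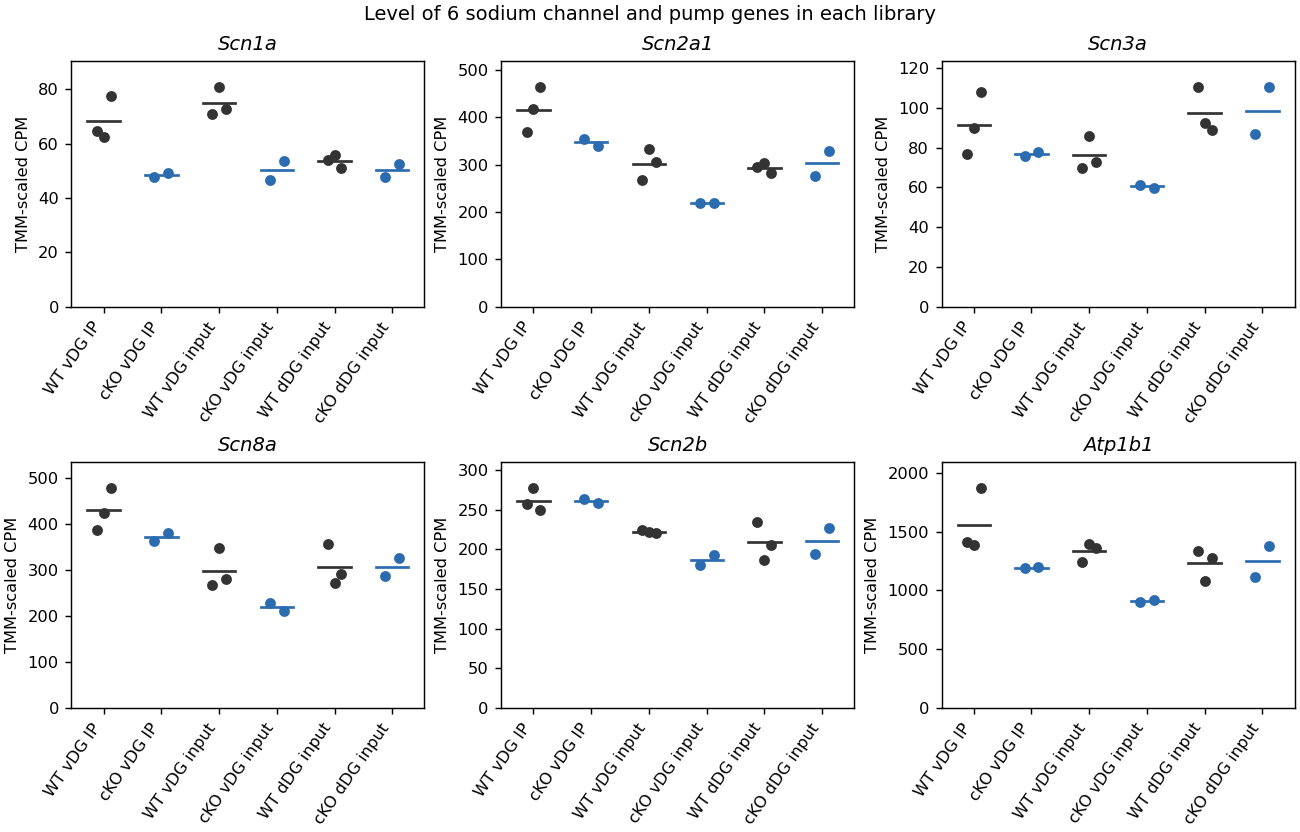
Level of each of the 6 genes in TMM-scaled CPM (y axis from 0, a scale of its own per gene) in the 15 libraries. Points are libraries and lines are group means, black for WT and blue for cKO. In the vDG input both cKO points lie below all WT points for each gene, and the share of all genes so placed was not counted. In the dDG input the genotypes overlap.

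IP was compared with input in vDG to ask which of these transcripts were carried by KI198Cre cells relative to the whole tissue. *Scn8a* and *Scn2a1* were enriched in the IP of both genotypes, *Scn2b* and *Atp1b1* passed the test in the cKO, and *Scn1a* lay slightly below the input level in both genotypes without passing it. *Scn8a* was at 387, 426 and 478 CPM in the WT IPs and at 268, 348 and 281 CPM in the WT vDG inputs. All IPs lay above all inputs, at 0.47 on the log2 scale (SE 0.13, FDR = 0.0163 in the quasi-likelihood test of edgeR). *Scn2a1* was at 369, 417 and 463 CPM in the WT IPs and at 267, 333 and 306 CPM in the inputs, again without overlap, a log2 fold change of 0.41 (SE 0.12, edgeR FDR = 0.0286). Both exceeded the fold limit that the study set for enrichment. In the WT, 2 of the 6 genes were thus called higher and none lower, where 7.73% of all genes tested were called higher and 16.1% lower. In the longest decile of genes by exonic length, which holds the alpha subunit genes, 32.4% were called in either direction and 14.6% lower.

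In the cKO, *Scn8a* was at 363 and 381 CPM in the IPs and at 228 and 211 CPM in the inputs, a log2 fold change of 0.71 (SE 0.10, edgeR FDR = 0.000223). *Scn2a1* was at 355 and 340 CPM in the IPs and at 219 and 218 CPM in the inputs, a log2 fold change of 0.62 (SE 0.09, edgeR FDR = 0.000557). *Scn2b* was at 264 and 259 CPM in the IPs against 180 and 193 CPM in the inputs, which gave 0.43 (SE 0.10, edgeR FDR = 0.00571). In these 3 genes every IP lay above every input, and so it was for *Atp1b1* and *Scn3a*. The share of all genes so separated between the cKO IPs and inputs was not counted. *Atp1b1* was at 1188 and 1198 CPM in the cKO IPs against 903 and 916 CPM in the inputs, a log2 fold change of 0.34 (SE 0.09, edgeR FDR = 0.0137). *Scn3a* had 0.29 (SE 0.11, edgeR FDR = 0.0645) and did not pass the threshold, although it passed with the replicate number as a block (0.29, FDR = 0.0132). A total of 4 of the 6 genes were called higher and 0 lower, against 11.8% of all genes called higher and 15.7% lower. In the longest decile of genes, 42.6% were called in either direction and 16.1% lower.

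The granule cell markers moved in the same direction, with sums of 1195 to 1328 CPM in the WT IPs against 958 to 1106 CPM in the inputs (2 of 5 called higher, median log2 fold change 0.32) and of 1364 to 1443 CPM against 1010 to 1014 CPM in the cKO (5 of 5, median 0.65). The mossy cell markers *Calb2*, *Drd2*, *Csf2rb2* and *Ociad2* did not rise as a set. None of these 4 was called in either genotype, and their median log2 fold change was -0.28 in the WT and -0.56 in the cKO. Oligodendrocyte and microglia markers were lower in the IPs, with 5 of 6 and 5 of 5 called in each genotype. The part of these cell types in the IP values was not tested.

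The WT values of the remaining genes were less separated. *Scn2b* was at 258, 277 and 250 CPM in the WT IPs and at 224, 223 and 221 CPM in the inputs, without overlap but with a log2 fold change of 0.18 (SE 0.11, edgeR FDR = 0.267). *Atp1b1* was at 1410, 1387 and 1867 CPM in the IPs and at 1244, 1395 and 1362 CPM in the inputs, with 2 of the 3 IPs above all inputs (0.17, SE 0.13, edgeR FDR = 0.379). *Scn3a*, at 76.8, 89.8 and 108 CPM against 69.8, 86.0 and 72.9 CPM, overlapped between IP and input (0.21, SE 0.14, edgeR FDR = 0.309). The difference between genotypes in IP over input was itself tested and passed for no gene. The interaction ranged from 0.11 to 0.28 on the log2 scale for the 6 genes, all at edgeR FDR = 1, with 0 of them and 497 of all 16093 genes at an unadjusted p under 0.05, 0 genes called by DESeq2, and 0% of genes called in either direction.

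*Scn1a* did not pass the test between IP and input. It was at 64.6, 62.6 and 77.3 CPM in the WT IPs and at 70.8, 80.6 and 72.8 CPM in the WT inputs, with overlapping ranges and a log2 fold change of -0.19 (SE 0.13, edgeR FDR = 0.308). In the cKO it was at 47.7 and 49.0 CPM in the IPs and at 46.7 and 53.5 CPM in the inputs (-0.10, SE 0.12, edgeR FDR = 0.59). A share within each library needs no scaling between libraries, but it falls where *Scn2a1* and *Scn8a* rise, so it restates their enrichment and is no separate evidence of a change in *Scn1a*. *Scn1a* made up 7.74 to 8.85% of the summed CPM per kb of the 4 alpha subunit genes in the WT IPs and 11.6 to 12.7% in the WT vDG inputs. In the cKO these shares were 6.98 to 7.15% in the IPs and 10.3 to 12.0% in the inputs. IP and input shares did not overlap in either genotype, and no p is given because 3 libraries against 3 or 2 against 2 are too few for an exact permutation test to reach 0.05. *Scn8a* moved the other way, from 32.9 to 35.4% in the WT inputs to 36.8 to 37.5% in the WT IPs.

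Transcripts of the interneuron markers *Gad1*, *Gad2*, *Slc32a1*, *Pvalb*, *Sst*, *Vip* and *Dlx1* moved in the same direction as the *Scn1a* share. They summed to 167 to 191 CPM in the WT IPs and 439 to 503 CPM in the WT vDG inputs, and to 115 to 131 CPM and 369 to 376 CPM in the cKO. In the WT 6 of the 7 were called lower in the IP, and none was at 0 in every library of a group. *Gad1*, the seventh, was at 98.7 to 108 CPM in the WT IPs and at 118 to 129.5 CPM in the inputs and was not called (-0.28, edgeR FDR = 0.0878). In the cKO 5 of the 7 were called lower, and *Vip* (-1.70, edgeR FDR = 0.125) and *Gad1* (-0.30, FDR = 0.073) were not. *Pvalb*, the marker of fast-spiking interneurons, was at 0.0791 to 0.761 CPM in the WT IPs and at 4.47 to 5.17 CPM in the inputs. The part of interneuron RNA in the *Scn1a* values was not tested, and in the inputs fewer cells of a type and less RNA per cell cannot be told apart.

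**Figure D2:**
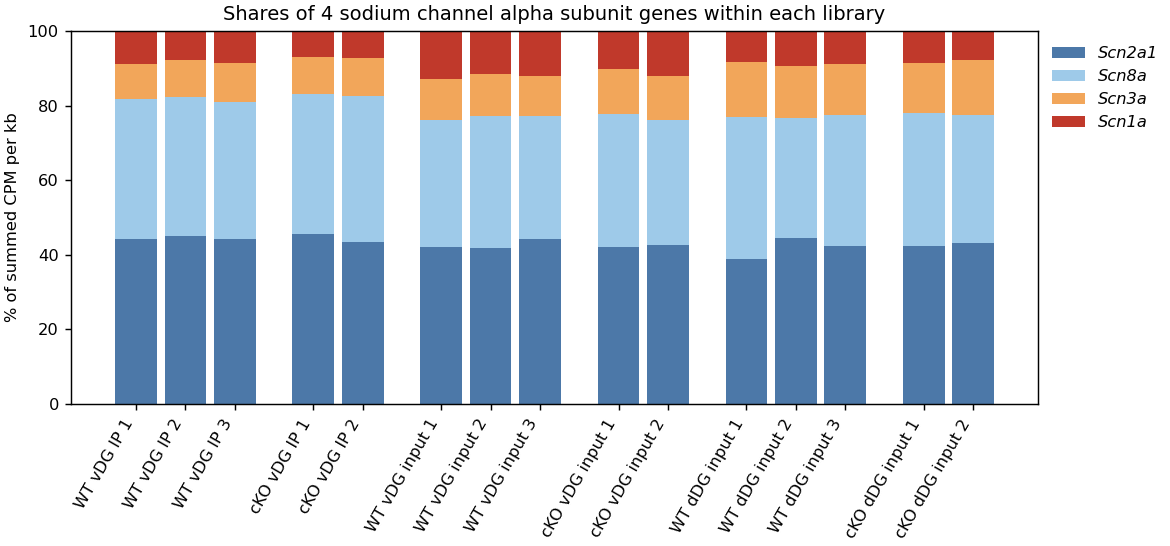
Share of *Scn2a1*, *Scn8a*, *Scn3a* and *Scn1a* in their summed CPM per kb (y axis, percent) in each of the 15 libraries (x axis). The red band of *Scn1a* is 6.98 to 8.85% in the 5 IPs, 10.3 to 12.7% in the 5 vDG inputs and 7.81 to 9.38% in the 5 dDG inputs.

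Of 34 further genes of sodium channels, pumps and their partners, 29 were tested in the WT, with 4 called higher in the IP and 6 lower, beside 7.73% of all genes called higher and 16.1% lower. Their median log2 fold change was 0.01, as against 0.00 over all genes. The genes called higher were 2 of 4 listed for the axon initial segment and 2 of 4 for the sodium leak channel, while *Nrcam* (0.18), *Nfasc* (0.11), *Fam155a* (0.08) and *Unc79* (0.01) of these lists were not called. Those called were *Ank3*, the ankyrin-G scaffold that anchors sodium channels (0.76, SE 0.15), *Sptbn4*, its beta-IV spectrin partner (0.51, SE 0.14), and *Nalcn* and *Unc80* of the leak channel (0.40 and 0.51). Lower in the IP were *Atp1b2* (-1.06, SE 0.17), *Atp1b3* (-0.70), *Fxyd1*, the pump regulator phospholemman (-3.20, SE 0.30), *Nkain4* (-0.71), *Fgf11* (-0.70) and *Scn9a*, the Nav1.7 alpha subunit (3.12 to 5.54 CPM in IPs against 7.73 to 9.11 CPM in inputs, edgeR FDR = 0.00435). In the cKO, 6 of 28 tested were called higher and 5 lower, beside 11.8% and 15.7% of all genes. Higher were *Ank3* (1.09), *Nalcn* (0.78) and *Unc80* (0.68) again, and *Fgf13*, *Nrcam* and *Nfasc* in addition (0.33 to 0.36). The 5 called lower were *Fxyd1* (-1.59), *Scn9a* (-1.31), *Atp1b3* (-0.77), *Fxyd6* (-0.70) and *Atp1b2* (-0.56). *Scn3b*, *Scn4b* and *Scn7a* were called in neither genotype.

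*Atp1b1* took 91.3 to 92.8% of the summed CPM per kb of the pump beta subunits *Atp1b1*, *Atp1b2* and *Atp1b3* in the WT IPs and 82.2 to 86.2% in the inputs. This share rises where *Atp1b2* and *Atp1b3* fall, so it restates their lower level in the IP and is no separate evidence on *Atp1b1*. Astrocyte markers (*Gfap*, *Aqp4*, *Aldh1l1*, *Slc1a3*, *Gja1* and *Aldoc*) summed to 112 to 157 CPM in the WT IPs and 756 to 909 CPM in the inputs, and all 6 were called lower. Their log2 fold changes were -3.30 to -1.38 in the WT and -3.06 to -1.34 in the cKO. *Atp1b2* was less low than any of them, at -1.06 and -0.56.

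**Figure D3:**
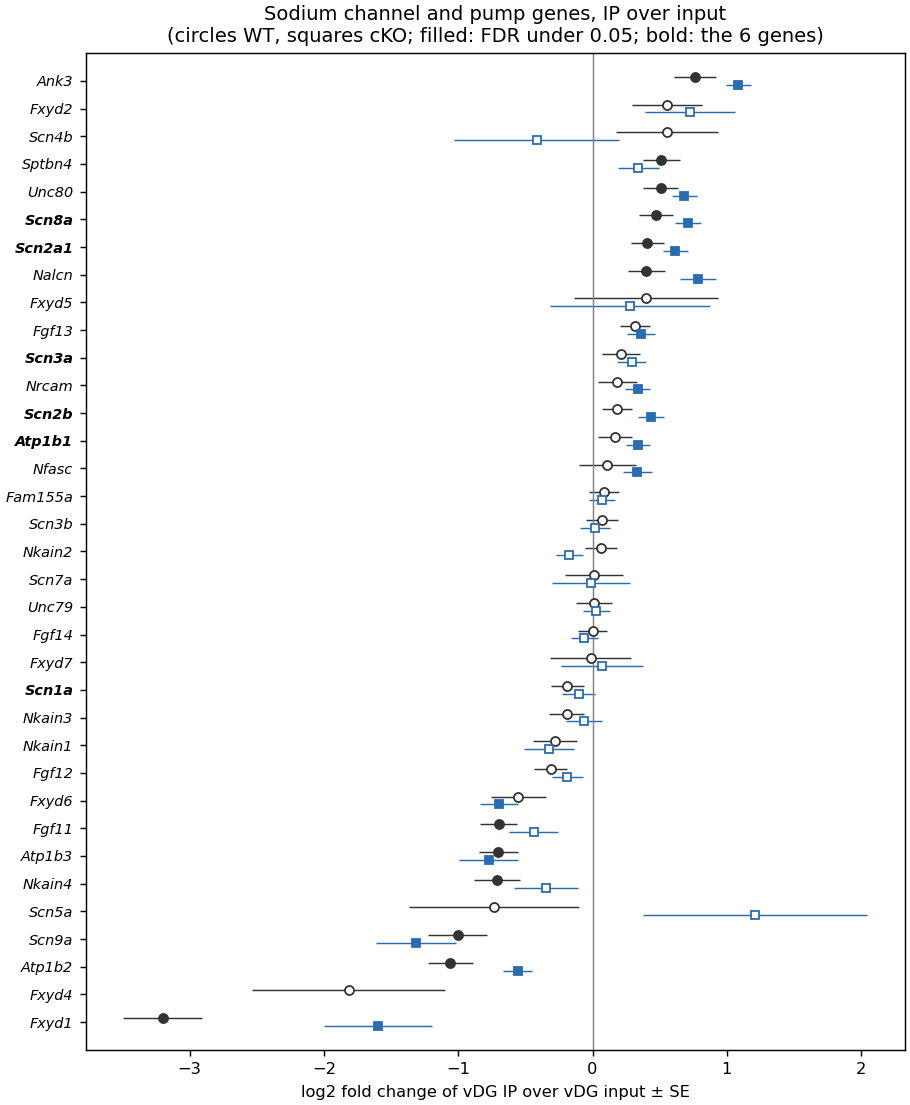
Log2 fold change of vDG IP over vDG input with its SE (x axis) for sodium channel and pump genes tested in the WT (y axis, ordered by the WT value). Circles are WT and squares cKO, filled where the FDR is under 0.05; *Fxyd1* lies lowest in the WT, *Scn8a* and *Scn2a1* lie to the right of 0 and *Scn1a* to the left in both genotypes.

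The WT calls depended on single libraries and on the scaling. *Scn8a* and *Scn2a1* both missed the threshold without WT vDG input replicate 1 (edgeR FDR = 0.079 and 0.123) or replicate 3 (0.0685 and 0.0719), and *Scn2a1* also without WT IP replicate 2 (0.0717) or 3 (0.0536). With library size alone in place of TMM, which lowered the median of all genes by 0.13 in the WT and by 0.20 in the cKO on the log2 scale, the WT values fell to 0.34 for *Scn8a* (FDR = 0.0638) and 0.28 for *Scn2a1* (FDR = 0.116). With the length trend removed they were 0.37 (FDR = 0.0559) and 0.33 (FDR = 0.0707). In the cKO both genes held under all 12 alternatives. *Atp1b1* in the cKO fell to 0.17 with library size alone (FDR = 0.209) and *Scn2b* to 0.27 (FDR = 0.0766). *Atp1b1* missed the threshold also in one fit of all groups (FDR = 0.0537), without cKO IP replicate 2 (FDR = 0.0572) and without cKO vDG input replicate 1 (FDR = 0.0525). The last 2 fits leave 1 library in an arm, which is assumed to vary like the other group.

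The vDG and dDG inputs were compared within each genotype to place the genes along the long axis of the hippocampus. In the WT, *Scn1a* was higher in vDG and the other 5 genes did not pass the test. *Scn1a* was at 70.8, 80.6 and 72.8 CPM in WT vDG inputs and at 54.1, 55.9 and 51.0 CPM in WT dDG inputs. The groups did not overlap, and the log2 fold change was 0.50 (SE 0.11, edgeR FDR = 0.00516, 0.000448 to 0.0256 under 14 alternatives). The FDR was 0.02 without WT dDG input replicate 2 and 0.0256 without replicate 3, the libraries with high *Ttr*. The *Scn1a* share of the 4 alpha subunits was likewise separate, with 11.6 to 12.7% in WT vDG and 8.17 to 9.38% in WT dDG. *Scn3a* had the opposite order, with 69.8, 86.0 and 72.9 CPM in vDG and 110, 92.5 and 89.0 CPM in dDG. Its groups did not overlap, but the log2 fold change of -0.33 (SE 0.12) missed the threshold (edgeR FDR = 0.0856). *Scn3a* passed it without WT vDG input replicate 2 (-0.42, FDR = 0.0468) and with the replicate block and the length trend removed (-0.35, FDR = 0.0416). The *Scn3a* share was 10.8 to 11.2% in WT vDG and 13.6 to 14.9% in WT dDG. Thus 1 of the 6 genes was called higher in vDG and 0 lower, where 9.26% of all genes were called higher and 6.09% lower.

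*Scn2a1*, *Scn8a*, *Scn2b* and *Atp1b1* overlapped between the regions in the WT, with log2 fold changes from -0.01 to 0.14. *Scn8a* ranged from 268 to 348 CPM in vDG and from 272 to 356 CPM in dDG. *Atp1b1* was at 1333, 1081 and 1274 CPM in the WT dDG inputs, beside 1244 to 1395 CPM in vDG. Interneuron markers summed to 439 to 503 CPM in WT vDG and 287 to 352 CPM in WT dDG, with *Gad2*, *Sst* and *Dlx1* called higher in vDG, and *Pvalb* was at 4.47 to 5.17 CPM in vDG and at 4.68 to 7.18 CPM in dDG. Mossy cell markers (*Calb2*, *Drd2*, *Csf2rb2*, *Glipr1* and *Ociad2*) summed to 183 to 217 CPM in vDG and 44.8 to 56.7 CPM in dDG, while the granule cell markers were lower in vDG (958 to 1106 against 1504 to 1526 CPM). The part of cell composition in the *Scn1a* difference was not tested.

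In the cKO 4 genes were called lower in vDG, and *Scn1a* was not called. *Scn1a* overlapped between the regions, at 46.7 and 53.5 CPM in vDG and 47.8 and 52.4 CPM in dDG (0.01, SE 0.12, edgeR FDR = 0.971). *Scn3a* was at 61.4 and 59.9 CPM in vDG and at 86.7 and 110 CPM in dDG, a log2 fold change of -0.69 (SE 0.13, edgeR FDR = 0.000633) that stayed past the threshold under all 12 alternatives. *Scn8a* (-0.47, SE 0.11), *Scn2a1* (-0.46, SE 0.11) and *Atp1b1* (-0.45, SE 0.12) were also called lower in vDG, at FDRs of 0.00533, 0.00787 and 0.0108 from edgeR. *Scn2a1* was at 219 and 218 CPM in cKO vDG and at 276 and 330 CPM in cKO dDG. *Scn2b* was at 180 and 193 CPM in vDG and at 195 and 227 CPM in dDG and was not called (-0.17, SE 0.11, edgeR FDR = 0.351). The groups did not overlap for any gene but *Scn1a*, although for *Scn2b* only by 193 against 195 CPM. The share of all genes so separated between these few libraries was not counted, so this is a description only. The 4 genes called lower and 0 called higher stand beside 8.47% of all genes called lower and 8.56% higher. In the longest decile of genes by exonic length, which holds the alpha subunit genes, 22.7% were called lower. Without cKO dDG input replicate 2, where these genes were higher than in the other cKO dDG library, *Scn8a*, *Scn2a1* and *Atp1b1* missed the threshold (FDR = 0.0936, 0.185 and 0.285 from edgeR) and only *Scn3a* remained called. That fit holds a single cKO dDG library, whose spread is taken from the vDG group. The difference also moved with exonic length, with a trend of -0.16 at the length of *Scn2a1* and -0.19 at that of *Scn8a*. With the trend removed both missed the threshold (-0.30, FDR = 0.0838, and -0.28, FDR = 0.0999), while with the replicate block beside it they stayed called at -0.29 and -0.28. *Atp1b1* missed the threshold in one fit of all groups (FDR = 0.0596). Granule cell markers summed to 1010 to 1014 CPM in cKO vDG and 1497 to 1504 CPM in cKO dDG, with 4 of 5 called lower in vDG. Mossy cell markers (175 to 208 against 58.8 to 59.8 CPM) and interneuron markers (369 to 376 against 309 to 336 CPM) each had 3 called higher in vDG. Called lower were 2 of 6 oligodendrocyte markers and 2 of 5 markers of progenitors and immature neurons. Of 6 astrocyte markers 1 was called higher and 1 lower, and of 2 choroid plexus markers tested 1 was called higher. The part of cell composition in these differences was not tested.

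Among the 34 further genes, the largest regional differences were in alpha subunits that are scarce in this tissue. *Scn7a*, the Nax channel that senses sodium levels, was at 6.45 to 10.3 CPM in WT vDG and 0.0899 to 0.33 CPM in WT dDG inputs (10 counts or fewer each), a log2 fold change of 5.06 (SE 0.35, edgeR FDR = 4.87e-08). It was at 6.60 to 10.4 CPM in the WT vDG IPs, close to its input level. *Scn9a* was at 7.73 to 9.11 CPM in WT vDG and 0.539 to 1.35 CPM in WT dDG (3.03, SE 0.28). *Fgf11*, an intracellular partner of sodium channels (1.08), *Nkain3* (0.99), *Fxyd6* (0.71) and *Nalcn* (0.40) were also higher in WT vDG, and *Fxyd7* (-0.95) was lower, which made 6 higher and 1 lower of 29 tested, beside 9.26% and 6.09% of all genes. In the cKO 5 of 28 were higher, with *Scn7a* (3.99) and *Scn9a* (2.80) again first, and 6 were lower (8.56% and 8.47% of all genes), among them *Ank3* (-0.60), *Nrcam* (-0.55), *Nfasc* (-0.49) and *Scn3b* (-0.37). The others lower were *Atp1b2* and *Fxyd7*, and the others higher were *Fxyd6*, *Fgf11* and *Nkain3*.

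Genotype was compared in each kind of sample to ask how these transcripts differed when the hippocampal serotonin receptor 4 was deleted. In the vDG input 3 of the 6 genes passed the test, each lower in the cKO. All 6 had lower levels in both cKO libraries than in every WT library. The share of all genes so separated was not counted, so this is a description only. In the longest decile of genes by exonic length, which holds the 4 alpha subunit genes, 70.2% had a log2 fold change below 0. *Scn1a* was at 46.7 and 53.5 CPM in the cKO and at 70.8, 80.6 and 72.8 CPM in the WT, a log2 fold change of -0.58 (SE 0.14, edgeR FDR = 0.0213). *Atp1b1* was at 903 and 916 CPM in the cKO and at 1244, 1395 and 1362 CPM in the WT (-0.56, SE 0.12, edgeR FDR = 0.0143). *Scn2a1* was at 219 and 218 CPM in the cKO and at 267, 333 and 306 CPM in the WT (-0.47, SE 0.13, edgeR FDR = 0.0489). These are folds of 0.668, 0.679 and 0.722. *Scn8a*, at 228 and 211 CPM against 268, 348 and 281 CPM, had a similar fold change but missed the threshold in edgeR (-0.45, SE 0.13, FDR = 0.0701). DESeq2 called *Scn8a* as well (FDR = 0.0267) and so 4 of the 6 genes, as did edgeR without the count filter (FDR = 0.0269) or without WT vDG input replicate 1 (FDR = 0.0263). *Scn3a* (-0.34, SE 0.13, FDR = 0.219) and *Scn2b* (-0.26, SE 0.12, FDR = 0.326) were not called. The count of 3 lower and 0 higher stands beside 2.33% of all genes called lower and 0.108% higher, and the median log2 fold change was -0.46 over the 6 genes and 0.01 over all genes.

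In the vDG IP no gene of the 6 passed the FDR of 0.1 that the study used there. *Scn1a* was at 47.7 and 49.0 CPM in the cKO and at 64.6, 62.6 and 77.3 CPM in the WT, without overlap (-0.48, SE 0.15, edgeR FDR = 0.238). *Atp1b1* was at 1188 and 1198 CPM in the cKO and at 1410, 1387 and 1867 CPM in the WT, also without overlap (-0.37, SE 0.14, edgeR FDR = 0.353). *Scn2a1* (-0.25) and *Scn8a* (-0.20) had no overlap either, *Scn3a* overlapped (-0.24), and so did *Scn2b* (0.01, SE 0.13). At an unadjusted p under 0.05, edgeR gave 2 of the 6 genes and 1674 of all 14300. DESeq2 called 371 genes over all at its threshold, of the 6 *Scn1a* (FDR = 0.0652). By edgeR's FDR 0.0699% of all genes were called higher and 0.35% lower.

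In the dDG input all 6 genes overlapped between genotypes. *Scn1a* was at 47.8 and 52.4 CPM in the cKO beside 54.1, 55.9 and 51.0 CPM in the WT. *Atp1b1* was at 1115 and 1378 CPM in the cKO, around the WT values of 1333, 1081 and 1274 CPM. The log2 fold changes of the 6 genes lay between -0.10 and 0.04 with SEs of 0.11 to 0.13. None was called by edgeR or DESeq2, none had an unadjusted p under 0.05, and over all genes 0.0065% were called higher and 0.026% lower. The difference between the regions in the genotype effect was tested as an interaction. It was negative for all 6 genes, at -0.59 for *Atp1b1* (SE 0.17, edgeR FDR = 0.186), -0.53 for *Scn2a1* (SE 0.17, FDR = 0.203), -0.49 for *Scn1a* (SE 0.17, FDR = 0.244), -0.46 for *Scn8a*, -0.36 for *Scn3a* and -0.28 for *Scn2b*. No gene of the 16306 tested passed in edgeR (0% in either direction), although 2010 of all genes and 4 of the 6 had an unadjusted p under 0.05. DESeq2 called 260 genes and 2 of the 6, *Atp1b1* (FDR = 0.0319) and *Scn2a1* (FDR = 0.0482). Without the count filter edgeR called 362 genes, *Atp1b1* among them (FDR = 0.0282), and with the replicate block 11 genes and none of the 6. Whether the genotype difference differed between the regions thus depended on the tool and the filter. The WT and cKO vDG inputs also enter the comparisons with IP and with dDG, so their low cKO levels recur there and are not independent of the values above.

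**Figure D4:**
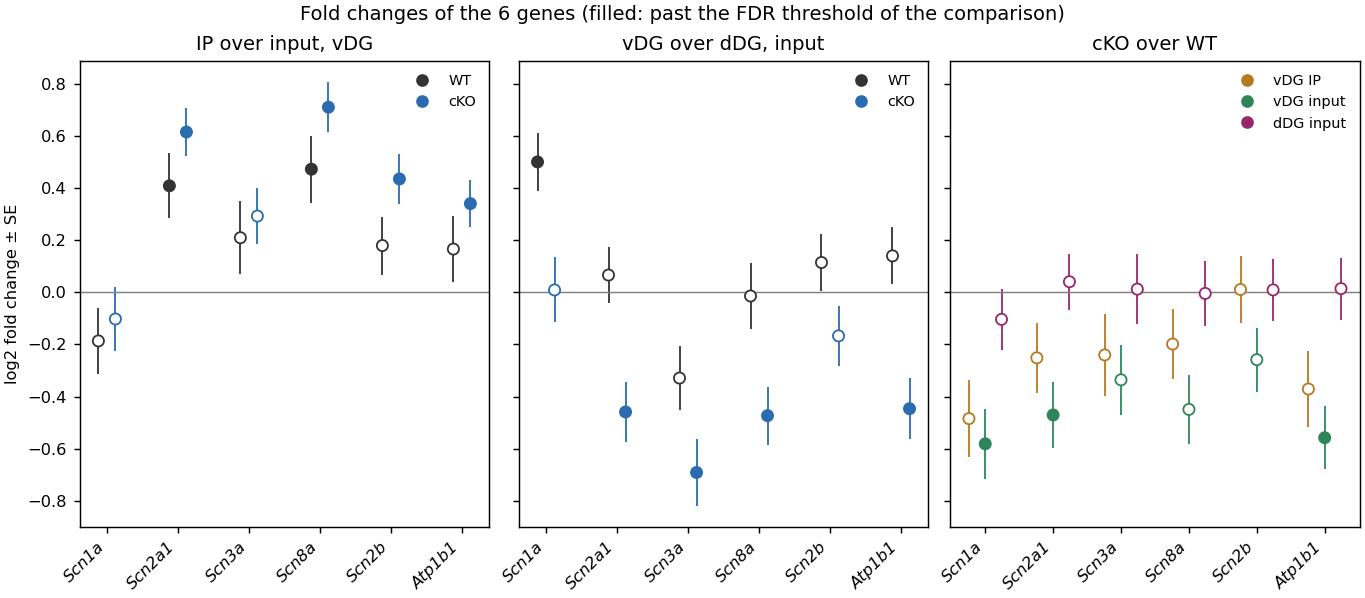
Log2 fold change with its SE (y axis) for each of the 6 genes (x axis) in IP over input, vDG over dDG and cKO over WT, from edgeR. Filled points pass the FDR threshold of the comparison; in the right panel the green points of the vDG input lie between -0.58 and -0.26 and the purple points of the dDG input between -0.10 and 0.04.

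The genotype calls in the vDG input depended on single libraries, and that of *Scn2a1* also on the scaling. All 3 missed the threshold without WT vDG input replicate 3 (FDR = 0.0538 for *Scn1a*, 0.0658 for *Atp1b1* and 0.133 for *Scn2a1* from edgeR), without cKO replicate 1 (0.422, 0.209 and 0.399) and without cKO replicate 2 (0.134, 0.134 and 0.308). The last 2 fits leave a single cKO library, which is assumed to vary like the WT libraries. The call of *Scn2a1* was lost in 10 of 13 alternatives, among them DESeq2 size factors (FDR = 0.0576), library size alone (FDR = 0.068), one fit of all groups (FDR = 0.0732), the replicate block (FDR = 0.113) and the fit without WT vDG input replicate 2 (FDR = 0.0907). That of *Atp1b1* was lost also in one fit of all groups (FDR = 0.0555). The log2 fold changes stayed within -0.70 and -0.46 for *Scn1a* and within -0.60 and -0.53 for *Atp1b1* over all 13 alternatives.

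Exonic length moved with these results. In the vDG input the genotype difference declined with length, from a median log2 fold change of 0.16 in the shortest decile of genes to -0.13 in the longest decile, in which 6.25% of genes were called lower. All 4 alpha subunit genes belong to that longest decile, and the trend at their lengths was -0.12 to -0.16, whereas it was 0.03 at the length of *Atp1b1* and -0.01 at that of *Scn2b*. With the trend removed, *Scn1a* was at -0.46 (edgeR FDR = 0.0882) and *Scn2a1* at -0.33 (FDR = 0.232), while *Atp1b1* stayed past the threshold. In the dDG input the trend ran the other way, from -0.17 in the shortest decile to 0.04 in the longest.

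**Figure D5:**
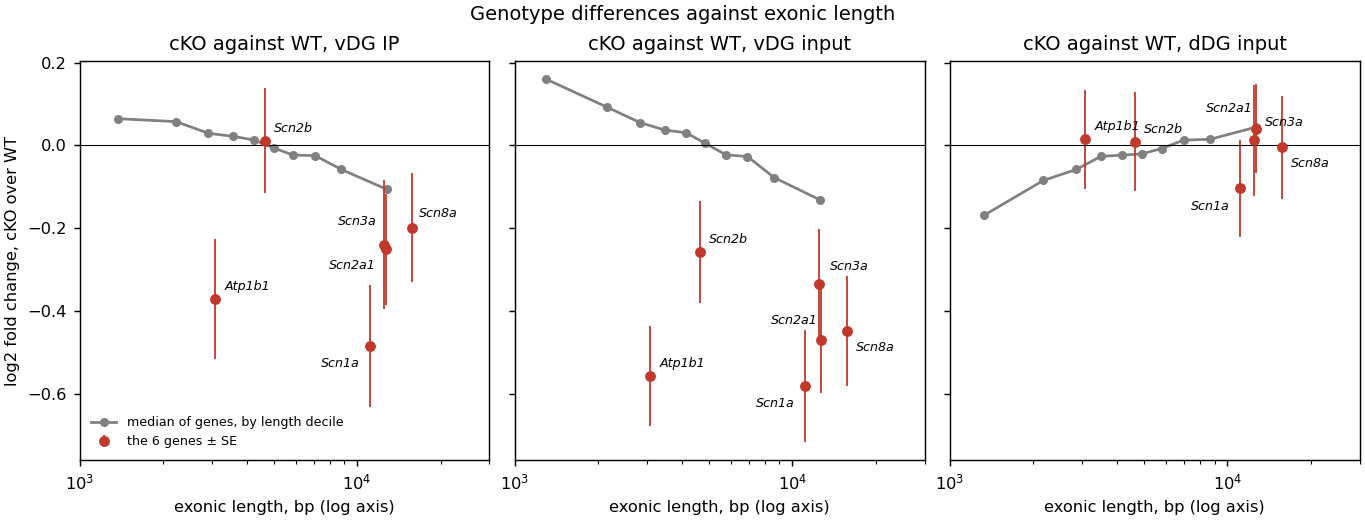
Log2 fold change of cKO over WT (y axis) against exonic length in bp (x axis, log scale) in the vDG IP, vDG input and dDG input. Grey points are medians of all tested genes by deciles of length and red points are the 6 genes with their SE; in the vDG input all 6 lie below the grey line.

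The 34 further genes held 4 called lower and 0 higher of 29 tested in the vDG input, beside 2.33% and 0.108% of all genes. *Atp1b2*, another pump beta subunit (-0.61, SE 0.15, edgeR FDR = 0.0302), fell with *Atp1b1*. *Scn7a* (-0.90, SE 0.23), *Nalcn* (-0.64, SE 0.15) and *Nrcam*, an adhesion molecule of the axon initial segment (-0.52, SE 0.13), were the others called. *Scn3b* (-0.15), *Scn4b* (0.04) and *Fxyd1* (0.09) were not. The share of *Atp1b1* among the pump beta subunits was 82.7 to 85.3% in the cKO and 82.2 to 86.2% in the WT. Within the alpha subunits of the channel, *Scn1a* made up 10.3 to 12.0% in the cKO and 11.6 to 12.7% in the WT, which overlapped. Of the 34 genes, none was called in the vDG IP (28 tested) or in the dDG input (27 tested), nor was any called in either interaction.

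Astrocyte markers were also lower in the cKO vDG input, with a sum of 652 to 657 CPM against 756 to 909 CPM in the WT and with *Slc1a3*, *Gja1* and *Aqp4* called lower (3 of 6). Interneuron markers summed to 369 to 376 CPM against 439 to 503 CPM, with none of 7 called. *Gad1* (94.5 to 96.7 against 118 to 129.5 CPM) and *Gad2* (216 to 226 against 263 to 279 CPM) made up most of the sum. *Dlx1* had the opposite order (7.80 to 9.68 against 5.77 to 7.18 CPM). *Pvalb* overlapped between the genotypes (4.81 to 6.28 against 4.47 to 5.17 CPM). The 2 markers of oligodendrocyte precursors summed to 18.3 to 19.6 CPM against 27.96 to 30.2 CPM, with *Cspg4* called lower. Microglia markers summed to 13.7 to 19.6 CPM against 21.0 to 34.3 CPM, with none of 5 called. *Ttr* of the choroid plexus was called higher (1.11, SE 0.29). Granule cell markers summed to 1010 to 1014 CPM, within the 958 to 1106 CPM of the WT, and *Dsp* was called lower. In the cKO IPs *Gad2* was called lower. The part of these cell types in the lower *Scn1a*, *Scn2a1* and *Atp1b1* levels was not tested.

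Across the 15 libraries *Scn2a1* and *Scn8a* varied together most closely of the 6 genes (Pearson r = 0.95 of log2 CPM), and *Scn1a* and *Scn3a* least (r = 0.14). These values are a description, since the libraries fall into groups of fraction, region and genotype. The genes most like each of the 6 were sought among 10373 genes with a mean of at least 5 CPM. *Scn2a1* was closest to *Eprs* (0.97), *Plppr4* (0.97) and *Phip* (0.96), and *Scn8a* to *Plppr4* (0.97), *Cacna1e*, which encodes the R-type calcium channel (0.96), and *Kidins220* (0.96). *Atp1b1* was closest to *Slc24a2*, a sodium/calcium/potassium exchanger gene (0.94), *Pdia3* (0.94) and *Pcm1* (0.93). *Scn3a* was closest to *Slc7a14* (0.95), *Slc2a13* (0.95) and *Ntrk3*, the neurotrophin-3 receptor gene (0.94), *Scn2b* to *Sema4f* (0.93), *Nup155* (0.90) and *Nup133* (0.90), and *Scn1a* to *Ctsd*, *Tax1bp1* and *Asph* (0.89, 0.89 and 0.88).

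An overlap on the genome bears on *Atp1b1*. The gene *Nme7* lies on the opposite strand and shares 575 bp of exon with it, and the kit used does not mark strand. The methods give the union mode and default settings of HTSeq for the counting and do not name strand. How reads in that stretch were assigned was not tested. *Nme7* was at 5.42 to 9.86 CPM in all 15 libraries, against 903 CPM or more for *Atp1b1*. No exon of another annotated gene overlapped those of the other 5 genes.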

How the data were processed

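Libraries were made from 15 ng of RNA amplified with the NuGEN Ovation V2 system and prepared with the TruSeq v2 kit. The authors trimmed the reads, aligned them to mm10 with STAR 2.4.2a, removed duplicates with SAMtools 0.1.19-444 and assigned reads to genes with HTSeq. The deposited values are the resulting raw counts, not normalized by the authors. Amplification and the removal of duplicates can compress abundant transcripts such as *Atp1b1*. Rows of reads assigned to no gene, 24.7 to 37.8% of each file's total, were left out. The deposited comparison tables (normalized counts, fold changes and p-values) were not used.

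Groups followed the sample labels. For each comparison the counts of its own groups were scaled by TMM, filtered with filterByExpr and tested with the two-sided quasi-likelihood F-test of edgeR 4.0.16 (limma 3.58.1, R 4.3.3). FDRs are Benjamini-Hochberg values over all genes tested, with a threshold of 0.1 for the genotypes in the vDG IP and 0.05 elsewhere. The study set these for the genotypes and for IP over input. For vDG over dDG and for the interactions it states none, and 0.05 was chosen here. SEs were derived from the F statistics. Interactions of genotype with fraction and with region were fitted over 4 groups each. Levels are TMM-scaled CPM, per kb of the union of exons in GENCODE M21 (23964 of 32657 features matched, 505 by an older symbol). Most-like genes were the 3 with the highest Pearson r of log2 CPM (prior count 2). Alternatives were DESeq2 1.42.0, its size factors, library size alone, no filter, all groups in one fit, a replicate block, removal of a length trend (loess, span 0.5) and each library left out. The exonic length of the basic transcript set was added after seeing the data. The code was tested on simulated data. Tables were made in Python 3.11.15 (pandas 2.3.3), and figures with matplotlib 3.10.9. The genes, lists and tests were chosen with earlier results of these data known. The named genes were all 6 genes, the called or most closely related genes of the list of 34, and cell type markers. Some genes of the wider list are not reported here.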

Additional observations from a re-analysis of the deposited data

How the results depend on the processing

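Of 738 values of the 6 genes under alternatives, 650 kept their direction and their side of the threshold, 42 lost a call, 11 gained one and 35 changed sign, all 35 in genes that were not called. The order of the genes per kb was the same with basic exonic lengths. Of 6 genes, WT IP over input called 2, but 0 with library size alone, with the length trend removed, or with that and the block, and 0 to 2 with a replicate left out. In the cKO, 4 became 2 with library size alone and 3 to 4 with a replicate left out, and its 4167 genes over all became 2252 to 4344. In vDG over dDG, the WT call of 1 became 2 with block and length trend and 1 to 2 with a replicate left out. The cKO calls of 4 became 2 with the length trend removed and 1 to 4 with a replicate left out, and its 2642 genes became 1360 in one fit of all groups and 1428 to 3084 with a replicate left out. For the genotypes in the vDG IP, the 60 genes called became 371 with DESeq2, 115 with library size alone, 379 without the filter, 470 in one fit, 30 with the length trend removed and 0 to 184 with a replicate left out, and *Scn1a* made 1 call of 6 with DESeq2 and in one fit. In the vDG input, 385 became 644 with DESeq2, 660 without the filter, 140 in one fit, 253 with the length trend removed and 6 to 638 with a replicate left out. The 3 calls of 6 became 1 in one fit (*Scn1a*) and 1 with the length trend removed, with or without the block (*Atp1b1*), and 0 to 4 with a replicate left out. In the dDG input, 5 genes became 186 with DESeq2, 378 without the filter, 0 in one fit, 3 with the length trend removed, 108 with that and the block, and 0 to 130 with a replicate left out. The interaction with fraction called 12 genes in place of 0 without the filter. That with region called 260 with DESeq2 (2 of the 6), 362 without the filter (1 of the 6) and 0 to 48 with a replicate left out. The causes were not tested.

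Sign changes were small. *Scn8a* in WT vDG over dDG became 0.013 with library size alone and -0.14 to 0.10 with a replicate left out, and *Scn2a1* there lay between -0.0086 and 0.14. *Scn1a* in cKO vDG over dDG became -0.00076 with DESeq2 and -0.00011 in one fit, and lay between -0.11 and 0.097 with a replicate left out, while its cKO IP over input lay between -0.20 and 0.0093. *Scn2b* in the genotype comparison of the IP became -0.018 with library size alone, -0.025 under the block, -0.011 with block and length trend, and -0.027 to 0.058 with a replicate left out. In the dDG input *Scn8a* became 0.0072 with DESeq2, 0.0066 with its size factors and 0.0016 in one fit, and *Scn3a* -0.058 under the block, -0.024 with the length trend removed and -0.098 with both. *Scn2b* there became -0.0038 under the block and *Scn2a1* -0.039 with block and length trend. With a replicate left out of that comparison, *Scn8a* lay between -0.093 and 0.12, *Scn3a* between -0.16 and 0.17, *Scn2b* between -0.099 and 0.11, *Scn2a1* between -0.088 and 0.16 and *Atp1b1* between -0.14 and 0.16. *Scn3a* in the interaction with fraction lay between -0.069 and 0.20.

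Replicate numbers were not shown to pair the libraries. By the methods an input was part of the extract before purification, but the labels give different numbers of mice for IP and input, and no source ties the numbers of the libraries. Deviations of same-numbered libraries correlated at 0.437, -0.123 and -0.276 between WT IP and input, at 0.383, -0.0811 and 0.242 between WT vDG and dDG, at 0.441 and 0.114 in the pairs of cKO groups, and at -0.17 to -0.0245 between genotypes in vDG input. Not every library correlated best with its own number. With the replicate number as a block, *Scn2a1* in the vDG input was at -0.46 (FDR = 0.113 from edgeR), *Scn3a* in cKO IP over input passed (0.29, FDR = 0.0132), the dDG genotype comparison called 137 genes and the interaction with region 11. The numbers of the cKO dDG libraries follow the sample titles (1 and 2), but their files are numbered 2 and 3, so every blocked value and correlation with these libraries rests on the titles. No other call on the 6 genes changed with the block alone.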
